A study of Mus musculus with 15 samples.

Results

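MLC and dHD28 are the 2 cell populations of this study that had been taken back to a stromal state, each from its own starting point, and they were compared directly over all genes. The comparison rests on 6 of the 15 arrays of the series, 3 of MLC and 3 of dHD28, assigned by the sample titles, and on 18193 genes, each read by its brightest probe set on average. All cells were from mice, and the labels give neither strain, sex nor age. MLC were primary hepatocytes moved to the medium of mesenchymal stromal cells (MSC, low-glucose DMEM with 10% serum) with human TGF-β1 at 10 ng/ml to day 7, 5 ng/ml to day 14 and 1 ng/ml to day 28, and then kept in MSC medium. Cells named dHD28 began as MSC. They had received hepatocyte growth factor (20 ng/ml), basic fibroblast growth factor (10 ng/ml) with nicotinamide over 7 days, followed by oncostatin M (20 ng/ml), dexamethasone (1 µmol/L) and ITS+ premix, which made them HD28, and were then put back into MSC medium for a time the labels do not state. Reference groups with 3 arrays each were MSC, HD28 and the primary hepatocytes (in a maintenance medium and DMEM/F12 with 10% serum). The labels do not say whether TGF-β1 was still present when MLC were harvested. Cell of origin, TGF-β1 and the factors that made HD28 differ together between MLC and dHD28, so their parts cannot be told apart. Time in MSC medium may differ too.

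TGF-β1 binds the type 2 and type 1 receptors Tgfbr2 and Tgfbr1, which phosphorylate Smad2 and Smad3. These join Smad4 in the nucleus and induce matrix, contractile and feedback genes such as the inhibitor Smad7. In liver this signal is known for turning stellate cells into contractile, collagen-making myofibroblasts and for moving hepatocytes in culture away from the epithelial state. Oncostatin M acts through gp130 and STAT3, and dexamethasone through the glucocorticoid receptor. Both support hepatocyte genes in culture.

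No gene passed the test of a difference between MLC and dHD28. With a call set at 2-fold or more and an adjusted p under 0.05 (limma, Benjamini-Hochberg over all genes), 0 of 18193 genes were higher and 0 were lower in MLC, a share of 0%, and without the fold limit the count was again 0. The lowest adjusted p was 1.00. At an unadjusted p under 0.05 there were 64 genes (0.352%). This limit passes a fraction of 0.05 on average where no gene differs, so the low count is no sign of likeness. Variation shared by arrays of the same replicate number stays in the spread of the main model. Its p, standard errors and intervals may thus be too large, and this count too low. With the replicate number as a block in the 6 arrays alone this count was 504 (2.77%), still with 0 genes changed and a lowest adjusted p of 0.195, for Brinp3, a neural gene induced by BMP and retinoic acid. Whether replicates are separate cultures or animals is not given in the labels, so every p measures the spread between these samples.

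The differences themselves were small. The median size of the MLC minus dHD28 difference was 0.101 on the log2 scale, the 95th percentile was 0.327 and the 99th was 0.521. Over the 18193 genes the mean size was 0.128 for MLC minus dHD28, 0.126 for MLC minus MSC and 0.148 for dHD28 minus MSC. These 3 comparisons share arrays, and each had 0 genes changed, with 64, 91 and 205 genes at an unadjusted p under 0.05. A missed threshold does not show that the groups were alike, so the interval of each difference was also read. In 15573 genes (85.6%) the 95% interval of the difference lay within 2-fold in both directions, and in 16268 (89.4%) when the spread was taken from the 6 arrays alone. For the remaining genes a 2-fold difference lies within the interval of these arrays.

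**Figure D1:**
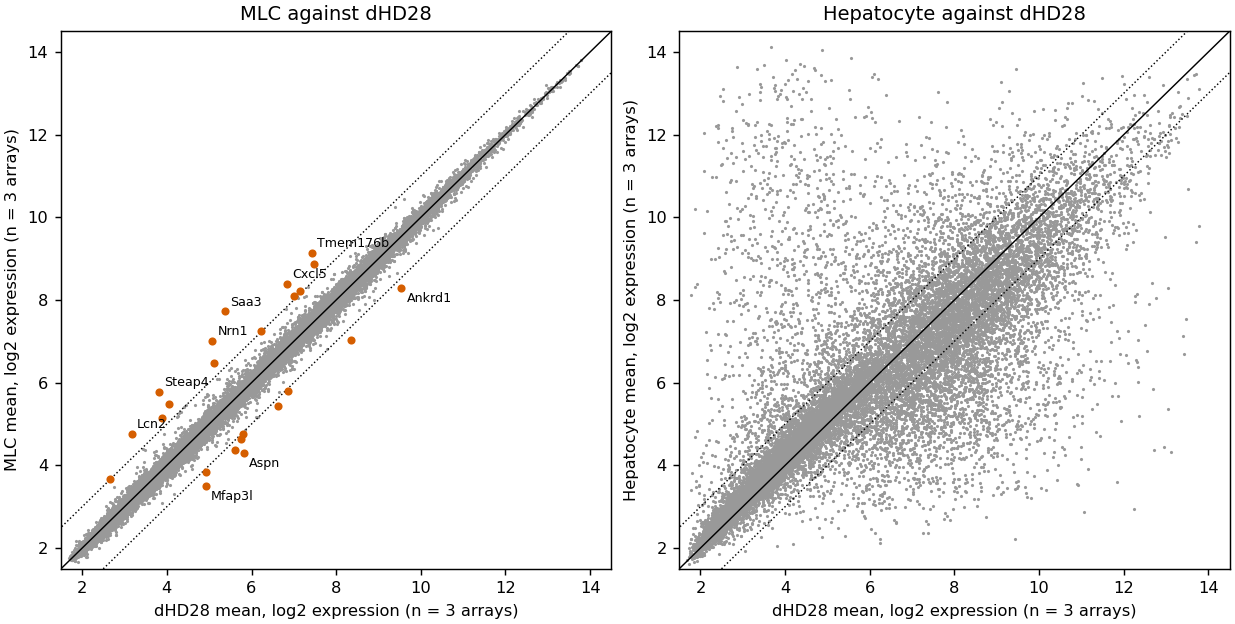
Mean log2 expression of 18193 genes in dHD28 (horizontal axis) against MLC (left) and against primary hepatocytes (right), 3 arrays per group; solid line, equal levels; dotted lines, a 2-fold difference. In the left plot 24 genes (orange) lie at or beyond the 2-fold lines, the farthest being Saa3 at 2.35 log2 units, whereas the hepatocyte plot is wide.

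Whole profiles did not separate the groups. Over the 18193 genes, Pearson's r between an MLC and a dHD28 array ran from 0.9678 to 0.9940 with a median of 0.9869. Within MLC it ran from 0.9787 to 0.9870 and within dHD28 from 0.9678 to 0.9868. For each of the 6 arrays the closest array of the series belonged to another group. MLC replicate 3 was closest to MSC replicate 3 (r = 0.9965), MLC replicate 1 to MSC replicate 2 (0.9909) and MLC replicate 2 to dHD28 replicate 2 (0.9940). On the other side, dHD28 replicate 2 was closest to MSC replicate 1 (0.9957), dHD28 replicate 3 to MSC replicate 3 (0.9946) and dHD28 replicate 1 to MLC replicate 1 (0.9884). The MLC arrays had r of 0.7011 to 0.7750 with the hepatocytes, the cells they are labelled as coming from. All arrays share probe sets and 1 normalisation, so these values describe likeness and are given with no p. Of the 9 MSC, dHD28 and MLC arrays, 8 were closest to an array of another group. The profiles therefore offer no check on which of these 3 labels an array carries, and each MLC minus dHD28 value holds for the libraries as labelled.

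**Figure D2:**
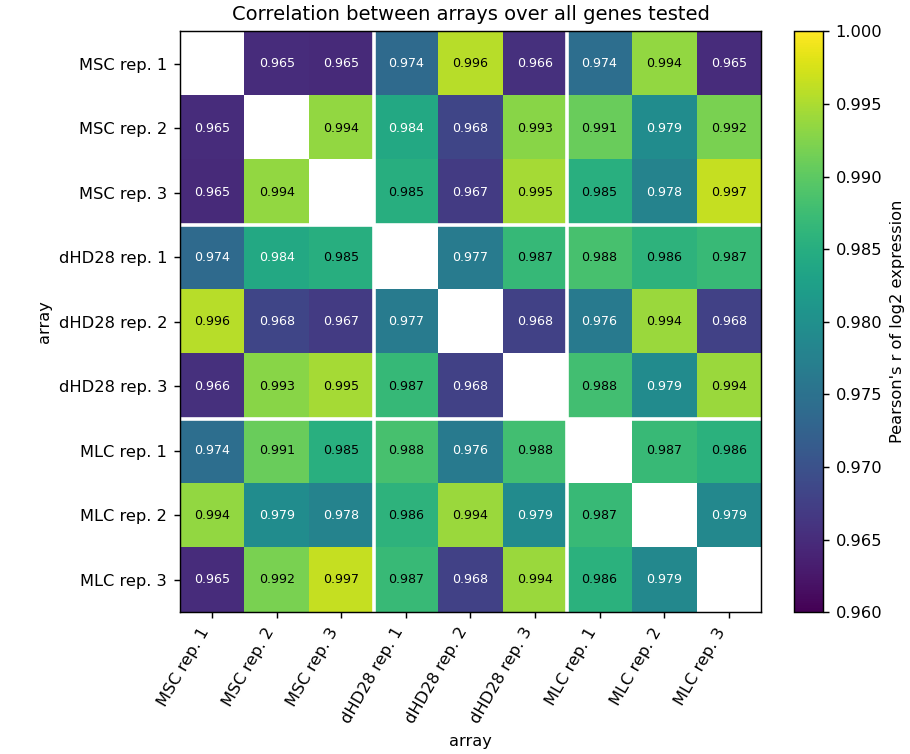
Pearson's r of log2 expression over 18193 genes between the 9 MSC, dHD28 and MLC arrays; rows and columns are arrays, colour and printed number give r, and white lines part the groups. The brightest cells lie between groups, such as MSC replicate 3 with MLC replicate 3 at 0.997 and MSC replicate 1 with dHD28 replicate 2 at 0.996.

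Features of single arrays ran across the groups. The mean signal of the poly-A control probe sets was 6.17 and 6.57 in MLC replicates 1 and 2 and 7.13 in dHD28 replicate 2. It was 4.36 in MLC replicate 3 and 4.09 and 4.30 in dHD28 replicates 1 and 3. Between the classes of high and low control signal over all 15 arrays, the same call gave 397 genes lower and 6 higher where that signal was high. HD28 replicate 3 stood apart in hepatocyte genes. The 31 secreted hepatocyte proteins averaged 10.95 in it and 4.61 in the lowest HD28 array, which widens the standard errors (SE) of such genes in the model of all 15 arrays. Array medians lay between 4.84 and 4.95, and a level under 3.43 to 3.70, the lower quartile of an array, need not be above background.

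Genes that mark hepatocytes were low in both populations. Albumin (Alb), the main plasma protein of liver, stood at 3.96, 3.64 and 3.95 in MLC and 3.35, 3.74 and 3.94 in dHD28, against 14.12 ± 0.02 (SD, n = 3) in the hepatocytes. MLC and dHD28 arrays overlapped, and the difference was 0.18 with a 95% interval of -0.29 to 0.64 from the 6 arrays. Of 31 measured secreted hepatocyte proteins, 30 had means at least 4-fold under the hepatocytes in both MLC and dHD28 (all genes: 1159 of 18193). Averaged over the list, MLC arrays lay between 4.34 and 4.69 and dHD28 arrays between 4.32 and 4.54, with the hepatocyte arrays at 12.50 to 12.65. Its median difference was -0.02, and 1 of its members had an interval within 2-fold in the model of all 15 arrays, or 27 when the spread was taken from the 6 arrays. In bulk RNA, fewer cells of a type and less RNA per cell cannot be told apart.

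The largest differences in that list were in haptoglobin and an apolipoprotein. Haptoglobin (Hp), which binds free haemoglobin, stood at 4.51, 5.02 and 8.94 in MLC and 5.40, 5.45 and 5.67 in dHD28. MLC replicate 3 alone was high, and the other MLC arrays lay under every dHD28 array. Apoa4, an apolipoprotein of gut and liver, read 3.93, 3.81 and 3.89 in MLC and 4.21, 4.56 and 4.54 in dHD28. The groups did not overlap, at a difference of -0.56 ± 0.54 (SE). Over all genes, 309 (1.70%) had every MLC array above every dHD28 array and 326 (1.79%) had every one below.

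The regulators and enzymes of hepatocytes gave the same picture. Of 21 hepatocyte transcription factors, 16 were at least 4-fold under the hepatocytes in both populations (all genes: 1159 of 18193). The list's median difference was -0.02. Atf5, a stress-responsive transcription factor, was the member with the largest difference (-0.59 ± 0.27) and the single member at an unadjusted p under 0.05. Its MLC arrays, 9.56, 9.70 and 9.80, lay under its dHD28 arrays, 10.49, 10.23 and 10.13. Cebpa, a factor of both liver and fat cells, differed by -0.32 ± 0.40. Of 29 cytochrome P450 and conjugation enzymes 23 and of 24 genes of intermediary metabolism 23 were at least 4-fold under the hepatocytes in both. The share over all genes was again 1159 of 18193. Median differences of these lists were 0.08 and 0.03.

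Markers of other liver cells were checked in the same way. Of 24 Kupffer cell and macrophage markers, 14 were at least 4-fold under the hepatocyte preparation in both populations, and 11 had both means under 3.7. Over all genes these counts were 1159 and 3177 of 18193. The list averaged 4.08 to 4.31 over MLC arrays and 3.96 to 4.28 over dHD28 arrays, against 5.83 to 7.55 in the hepatocytes. Its largest difference was in Cd68, a lysosomal protein of macrophages (-0.57 ± 0.50). Median differences of the other lists were 0.02 for 20 liver endothelial, 0.08 for 21 stellate cell and pericyte, -0.04 for 20 mesothelial and portal fibroblast and -0.04 for 12 cholangiocyte and progenitor markers. None of the members of these 4 lists was at an unadjusted p under 0.05. With the replicate block in the 6 arrays, 3 of the 24 Kupffer cell and macrophage markers were at this limit (all genes: 2.77%). The counts were 4 of the 20 mesothelial and portal fibroblast, 2 of the 12 cholangiocyte and progenitor and none of the endothelial or stellate cell markers.

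The surface markers by which MSC are usually defined were mixed in these arrays. Cd44, the hyaluronan receptor, stood at 10.83, 10.50 and 10.18 in MLC and 10.70, 10.28 and 10.36 in dHD28, with the hepatocytes at 5.99 ± 2.02 (SD, n = 3). Endoglin (Eng), a TGF-β co-receptor, was 6.40 in both and 8.02 in the hepatocytes, and Nt5e (CD73) was 5.91 and 5.94 against 6.14, so neither was higher than in hepatocytes. Thy1 (CD90) read 3.83, 5.20 and 4.87 in MLC and 4.75, 5.71 and 5.86 in dHD28, a difference of -0.81 ± 0.48, the largest of the 24 stromal surface markers. Its arrays overlapped across the groups, while within each pair of the same replicate number MLC was lower, with differences of -0.92, -0.51 and -0.99, and with the replicate block in the 6 arrays the adjusted p in limma was 1.00. The leukocyte gene Ptprc (CD45) was under 2.8 in all 6 arrays. The list's median difference was 0.06.

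**Figure D3:**
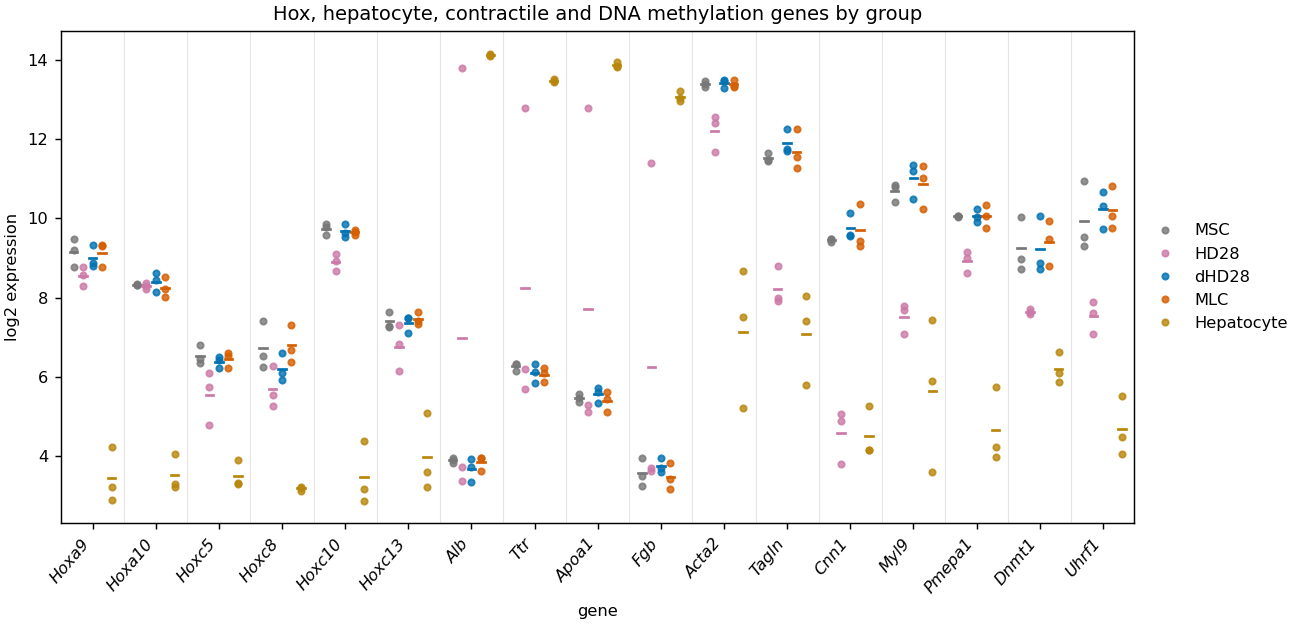
Log2 expression of Hox, hepatocyte, contractile and DNA methylation genes in the 15 arrays; each point is 1 array and each bar a group mean of 3. MLC and dHD28 points lie side by side for each gene, far from the hepatocytes for Alb (3.64 to 3.96 and 3.35 to 3.94 against 14.12) and Hoxc10. The single high HD28 point in Alb, Ttr, Apoa1 and Fgb is HD28 replicate 3.

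The Hox genes record position along the body axis. Of 39 listed, 33 were measured, none changed, and the differences ran from -0.46 (Hoxb6) to 0.58 (Hoxc8), with an interval within 2-fold in 30. In 6 of them, Hoxa9, Hoxa10, Hoxc5, Hoxc8, Hoxc10 and Hoxc13, both populations lay at least 4-fold above the hepatocytes (all genes: 1387 of 18193). Hoxc10, a gene of the lumbar and hindlimb region, stood at 9.71, 9.66 and 9.57 in MLC, at 9.62, 9.86 and 9.54 in dHD28 and at 9.79, 9.85 and 9.58 in MSC. In the hepatocytes it read 4.40, 3.17 and 2.88. All 9 stromal arrays lay within 0.32 log2 units of each other. Hoxa9 gave 9.34, 8.78 and 9.29 in MLC, 8.88, 8.81 and 9.32 in dHD28, and 4.23, 3.23 and 2.89 in the hepatocytes. For Hoxc8 the MLC values of 7.32, 6.68 and 6.39 and the dHD28 values of 6.11, 5.93 and 6.60 overlapped. Among 61 other regulators of limb, body position and mesoderm, 20 lay at least 4-fold above the hepatocytes in both (all genes: 1387 of 18193). Their median difference was 0.005. The largest were in Foxd1, a forkhead factor of stromal progenitors (0.77 ± 0.36), and Nr2f2, an orphan nuclear receptor of mesenchyme (-0.62).

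The genes of the TGF-β pathway bear on the cytokine that only MLC are labelled to have received. Among its ligands, Tgfb1 differed by -0.32 ± 0.32, Tgfb2 by 0.06 ± 0.65 and Tgfb3 by 0.18 ± 0.29. The receptor genes Tgfbr1, Tgfbr2 and Tgfbr3 differed by 0.17, 0.39 and 0.33, with SE of 0.35, 0.52 and 0.45. The signal carriers Smad2, Smad3 and Smad4 differed by -0.04, 0.14 and 0.11. For the inhibitor Smad7 the MLC arrays read 8.57, 8.53 and 7.87 and the dHD28 arrays 8.99, 8.57 and 7.86. In both populations replicate 3 was the low one. Of 32 ligands, receptors, binding proteins and Smads none changed, the median was 0.06, and 22 had an interval within 2-fold.

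Ltbp2, a microfibril protein of the latent TGF-β binding protein family, had the largest difference of the pathway. It stood at 8.86, 7.77 and 8.02 in MLC and 7.13, 6.80 and 7.53 in dHD28. The groups did not overlap, and the difference was 1.06 ± 0.52, with a 95% interval of -0.07 to 2.19 and of 0.31 to 1.81 from the 6 arrays. MSC spanned 7.58 to 9.16 and HD28 2.87 to 4.85. Bambi, a decoy receptor, came second at -0.48 ± 0.47.

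Among targets of the pathway no gene passed either. Of 29 TGF-β response genes none changed and none was at an unadjusted p under 0.05 (1 with the replicate block in the 6 arrays), with a median of -0.02. In both populations 19 of them lay at least 4-fold above the hepatocytes (all genes: 1387 of 18193). MSC were at the same level, as the list averaged 9.80 to 10.15 over MLC, 9.73 to 10.16 over dHD28 and 9.67 to 10.18 over MSC arrays. Pmepa1, a feedback target of Smad signalling, read 10.33, 10.06 and 9.75 in MLC and 10.23, 10.03 and 9.90 in dHD28, against 8.62 to 9.14 in HD28 and 3.99 to 5.74 in the hepatocytes. MLC and dHD28 overlapped fully, at a difference of 0.00 with an interval of -0.75 to 0.75. Ccn2, connective tissue growth factor, read 12.14, 10.63 and 10.83 in MLC and 12.45, 10.34 and 11.43 in dHD28. Replicate 1 was the high array in both. The collagen gene Col1a1 was 13.06 ± 0.22 in MLC and 13.12 ± 0.10 in dHD28 (SD, n = 3), and 4.32 in the hepatocytes. In the related lists the medians were 0.04 for 24 BMP and GDF genes, with Grem1, a BMP antagonist, at 0.74 ± 0.38, and 0.06 for 40 Wnt genes. Wnt10a, a Wnt ligand (0.86 ± 0.39), was the member of the latter at an unadjusted p under 0.05.

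Contractile genes were high in both populations and in MSC. The list averaged 8.30 to 8.53 over MLC, 8.43 to 8.57 over dHD28 and 8.31 to 8.41 over MSC arrays. Smooth muscle actin (Acta2) stood at 13.48, 13.34 and 13.31 in MLC and 13.47, 13.28 and 13.48 in dHD28, above the 11.66 to 12.56 of HD28 and the 5.23 to 8.66 of the hepatocytes. Of 23 contractile and smooth muscle genes, 10 lay at least 4-fold above the hepatocytes and 5 at least 4-fold above HD28 in both. Over all genes, 1387 of 18193 lay above the hepatocytes and 162 above HD28 by this limit. Calponin (Cnn1), an actin-binding protein, read 10.36, 9.31 and 9.44 in MLC and 10.13, 9.59 and 9.56 in dHD28, against 3.82 to 5.07 in HD28. The regulatory light chain Myl9 read 11.32, 10.24 and 11.01 in MLC and 11.35, 10.48 and 11.19 in dHD28, against 7.08 to 7.79 in HD28. In both genes the MLC and dHD28 arrays overlapped. Actg2, the enteric smooth muscle actin, differed by -0.50 ± 0.29 and the list's median was -0.05.

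Serum response factor (SRF) is the textbook activator of this group and binds the CArG box. The 250 bases before the start were searched on both strands for the CArG box by name, in the RefSeq promoters of assembly GRCm38.p6. Among 23 genes 19 had a promoter entry, and 5 held a box: Myl9, Srf, Vcl, Acta1 and Actc1. The share was 26.3%, against 1.43% of the 14452 tested genes with an entry. The list was written from knowledge of SRF targets, so its share is a description. The promoters of Myl9, high in both populations, and of Srf, which encodes the factor itself, are shown with the boxes in capitals. That of Myl9 is chr2:156775214-156775463 on the plus strand and that of Srf chr17:46556163-46556412 on the minus strand, each read toward its gene.
Myl9: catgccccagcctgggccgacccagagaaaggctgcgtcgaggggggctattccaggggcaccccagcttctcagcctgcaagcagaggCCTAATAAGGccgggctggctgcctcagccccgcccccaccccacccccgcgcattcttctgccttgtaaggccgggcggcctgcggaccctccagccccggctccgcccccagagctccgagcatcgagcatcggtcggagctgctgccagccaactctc
Srf: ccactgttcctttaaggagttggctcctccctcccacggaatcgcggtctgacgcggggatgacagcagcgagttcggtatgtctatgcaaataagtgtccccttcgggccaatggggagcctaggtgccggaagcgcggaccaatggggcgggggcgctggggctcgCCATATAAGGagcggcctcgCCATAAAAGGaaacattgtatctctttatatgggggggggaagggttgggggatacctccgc
The Myl9 box begins 161 bases before the start and the Srf boxes 82 and 62 bases before. Srf itself read 8.33, 8.93 and 8.12 in MLC and 9.33, 9.32 and 8.13 in dHD28, a difference of -0.47 ± 0.33 with overlapping arrays. No box was found for Ankrd1 in this window.

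Ankrd1, a muscle ankyrin repeat protein and target of YAP, was the contractile list's largest difference. It read 7.79, 8.62 and 8.47 in MLC and 9.97, 8.80 and 9.85 in dHD28, with MSC at 8.76, 7.90 and 7.97. MLC lay under dHD28 without overlap, and the difference was -1.25 ± 0.85, with an interval of -3.09 to 0.59, or -2.09 to -0.40 from the 6 arrays.

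Proliferation genes were high in both populations. Over 31 cell cycle genes the MLC arrays averaged 9.32 to 9.97 and the dHD28 arrays 9.35 to 9.96, against 7.34 to 7.78 in HD28. The MSC arrays were high as well, at 9.13 to 9.94. Both populations were at least 4-fold above the hepatocytes in 29 and above HD28 in 19 of the cell cycle genes (all genes: 1387 and 162 of 18193). The median difference was 0.01, and the largest were in the G1 cyclin Ccne1 (-0.43 ± 0.42) and the proliferation antigen Mki67 (0.31 ± 0.44). The 23 CDK inhibitor, p53 and senescence genes had a median of -0.05.

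The study's title concerns DNA methyltransferases. The maintenance methyltransferase Dnmt1 stood at 9.49, 9.94 and 8.80 in MLC and 8.72, 10.07 and 8.88 in dHD28, overlapping, with a difference of 0.19 ± 0.41. In HD28 it lay at 7.60 to 7.72 and in the hepatocytes at 5.87 to 6.62. Uhrf1, which guides Dnmt1 to newly copied DNA, read 10.07, 10.82 and 9.75 in MLC and 10.32, 10.66 and 9.74 in dHD28. For both genes replicate 2 was the high array and replicate 3 low or near the lowest. The de novo enzymes Dnmt3a and Dnmt3b differed by -0.05 ± 0.29 and -0.08 ± 0.13, and the oxidases Tet1, Tet2 and Tet3 by -0.14, 0.22 and 0.32. Of 17 measured genes none changed. The list averaged 7.28 to 7.38 over MLC, 7.16 to 7.43 over dHD28 and 7.14 to 7.43 over MSC arrays. The largest differences were in the stress genes Gadd45a, at -0.55 ± 1.08, and Gadd45g, at 0.41 ± 0.55, and Gadd45a ranged from 5.50 to 8.04 in MLC and from 5.01 to 8.32 in dHD28.

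Y-linked genes were present in both. Eif2s3y, a translation factor gene, read 8.39, 7.45 and 8.49 in MLC and 7.50, 6.18 and 8.81 in dHD28, and Uty, a histone demethylase relative, read 6.22, 5.40 and 6.51 against 5.64, 4.07 and 6.67. The demethylase gene Kdm5d differed by 0.72 ± 0.44. In all 3 genes dHD28 replicate 2 was lowest of the 6. Xist, the RNA of the inactive X chromosome, lay between 4.90 and 5.15 in the 6 arrays and reached 5.44 in the hepatocytes.

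Group means were at least 2-fold apart in 24 genes (0.132% of all), 14 higher in MLC (0.077%) and 10 lower (0.055%). These genes were chosen after their values were seen, and none passed the adjusted test. In 6 of them the arrays of the groups did not overlap, where 309 of all genes (1.70%) had MLC above and 326 (1.79%) MLC below. At an unadjusted p under 0.05 were Mfap3l, Armh4 and Nrn1. Leaving out 1 of the 6 arrays moved the difference by over 1.5 times in 19 of the 24, and in the other 5, Ankrd1, Mest, Ltbp2, Cyp7b1 and Nrn1, it did not. The MSC mean lay within the range of the 6 arrays for all 24 and between the 2 group means for 17 (all genes: 5562 of 18193). Genes picked for a wide gap leave more room for a mean between, so these counts are no trait of the 24. MLC replicate 3 held the highest value in 8 of them and dHD28 replicate 3 in 4. The lowest value was in dHD28 replicate 2 for 10 and in MLC replicate 1 for 8.

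**Figure D4:**
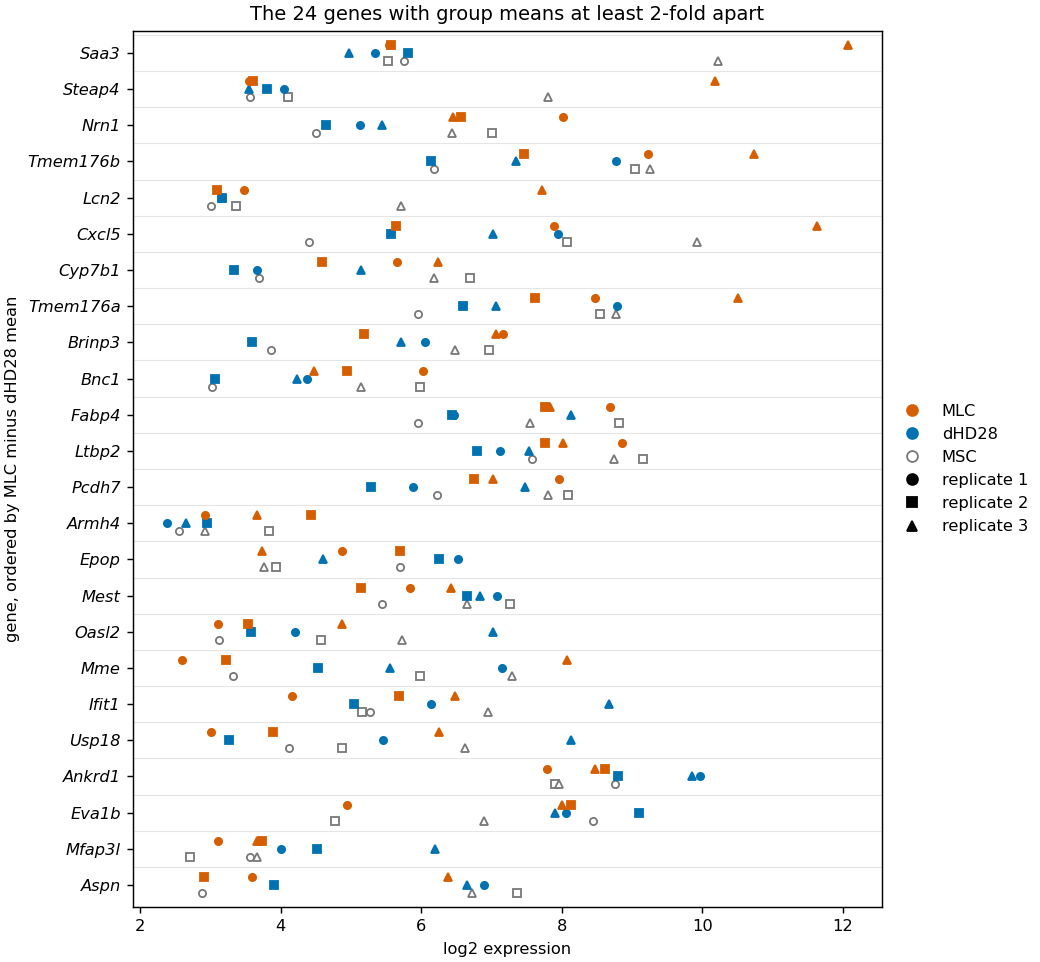
Log2 expression of the 24 genes with group means at least 2-fold apart, in MLC (orange), dHD28 (blue) and MSC (open grey); the symbol gives the replicate and genes are ordered by MLC minus dHD28. For Saa3, Steap4 and Lcn2, MLC replicate 3 stands alone at 12.07, 10.19 and 7.72, with MSC replicate 3 next, and for Usp18, Ifit1 and Oasl2 dHD28 replicate 3 is highest.

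Several of the differences on the higher side rested on MLC replicate 3. The genes given here were picked with their values in view and are no list. Saa3, an acute-phase serum amyloid, read 5.54, 5.57 and 12.07 in MLC and 5.34, 5.82 and 4.97 in dHD28. Its difference of 2.35 ± 1.72 rests on MLC replicate 3, and MSC replicate 3 also stood out, at 10.22 against 5.76 and 5.53. Steap4, a metalloreductase induced by inflammatory cytokines, read 3.55, 3.61 and 10.19 in MLC and 4.05, 3.81 and 3.55 in dHD28, and the difference of 1.98 was -0.22 without MLC replicate 3. The siderophore-binding lipocalin Lcn2 read 3.48, 3.09 and 7.72 in MLC and stayed at 3.16 to 3.17 in dHD28. Cxcl5, a chemokine for neutrophils, read 7.89, 5.65 and 11.64 in MLC and 7.95, 5.57 and 7.02 in dHD28, and its difference of 1.55 was -0.07 without that array. The same array was highest of the 6 for the chemokine Cxcl1 (10.12), the cytokine Il6 (6.47) and the stromelysin Mmp3 (7.35). Between arrays of low control signal, where MLC replicate 3 is the lone MLC array, the Saa3 difference was 6.92, and between arrays of high signal it was -0.27.

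The 23 oncostatin M and STAT3 response genes had the highest list median, 0.15, with 13 above and 10 below zero. They averaged 6.49 to 7.53 over MLC arrays and 6.59 to 6.65 over dHD28 arrays, against 8.01 to 8.95 in HD28. Between arrays of low control signal the list's median was 0.48, and between arrays of high signal it was -0.13 (all genes: 0.057 and -0.074). For 37 chemokine ligands and cytokines the median was 0.03, and for 22 glucocorticoid response genes 0.04. In the latter Angptl4, an inhibitor of lipoprotein lipase, was at an unadjusted p under 0.05, with 7.85, 7.37 and 7.80 in MLC against 7.15, 6.83 and 6.85 in dHD28. The groups did not overlap, at a difference of 0.73 ± 0.28.

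Interferon-stimulated genes, which act against viruses, gave the lowest list median, -0.30 over 23 genes, with 18 below and 4 above zero (all genes: 8785 below and 9362 above). None changed, and 1, the transcription factor Irf7 (-0.77 ± 0.35), was at an unadjusted p under 0.05. With the replicate block in the 6 arrays 8 of the 23 were, where all genes gave 2.77%. Usp18, which strips ISG15 from proteins, read 3.01, 3.89 and 6.25 in MLC and 5.46, 3.27 and 8.14 in dHD28. Its difference of -1.24 ± 1.09 was 0.02 without dHD28 replicate 3. Ifit1, a sensor of viral RNA, read 4.16, 5.68 and 6.49 in MLC and 6.14, 5.04 and 8.68 in dHD28, and Oasl2, a relative of the 2-5A synthetases, 3.11, 3.54 and 4.87 against 4.20, 3.58 and 7.03. In each of these genes replicate 3 was the highest array of both groups and dHD28 replicate 3 the highest of all. Each was among the 8 under the replicate block, though the pairs did not all go one way. In pairs 1, 2 and 3 Usp18 differed by -2.45, 0.62 and -1.89, and Ifit1 by -1.98, 0.64 and -2.19. Oasl2 differed by -1.09, -0.04 and -2.16. Genes of this list can vary together, so the 8 are no separate results and show no steady difference within pairs. Within the low and the high control signal class the list's median was -0.19 and 0.04 (all genes: 0.057 and -0.074).

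Of the 14 genes at least 2-fold higher in MLC, Ltbp2, Nrn1 and Bnc1 had every MLC array above every dHD28 array (all genes: 309, 1.70%). Nrn1, neuritin, a membrane-anchored neural protein, read 8.02, 6.57 and 6.46 in MLC and 5.13, 4.64 and 5.45 in dHD28, without overlap. Its difference was 1.94 ± 0.89, with an interval of 0.03 to 3.85 before adjustment, and the hepatocytes lay at 11.17 to 11.41 and MSC at 4.51, 7.01 and 6.44. Bnc1, the zinc finger protein basonuclin, read 6.03, 4.95 and 4.48 in MLC and 4.38, 3.07 and 4.23 in dHD28, again without overlap, at 1.26 ± 0.66. Cyp7b1, the oxysterol 7-alpha-hydroxylase, read 5.66, 4.59 and 6.24 in MLC and 3.67, 3.34 and 5.15 in dHD28. Its arrays overlapped, and the difference was 1.44 ± 0.85, with an adjusted p of 0.421 under the replicate block in limma. As the mean of its probe sets it was 0.79. The hepatocytes stood at 11.84 to 12.53 for this gene.

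Other genes of this side varied widely within the groups. Brinp3 read 7.17, 5.19 and 7.06 in MLC and 6.05, 3.59 and 5.72 in dHD28. Each MLC array exceeded the dHD28 array of its replicate number by 1.12 to 1.60, while the groups overlapped. The neighbouring membrane protein genes Tmem176a and Tmem176b differed by 1.39 ± 0.86 and 1.73 ± 0.93 and had their highest arrays in MLC replicate 3, at 10.51 and 10.74. Fabp4, the fatty acid carrier of fat cells and macrophages, differed by 1.08 ± 0.72, and another of its probe sets gave 0.90. The set used when those with the suffixes _x_at, _s_at and _a_at were dropped gave -0.03. Pcdh7, a protocadherin, differed by 1.02 ± 0.57 (0.38 as the mean of its probe sets) and Armh4 by 1.01 ± 0.37, with its dHD28 arrays at 2.39 to 2.95, under the lower quartile. The 22 adipogenic and lipid storage genes as a list had a median of -0.05.

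Lower in MLC were a matrix gene, an imprinted gene and a peptidase among others. Mfap3l, a membrane glycoprotein, read 3.11, 3.73 and 3.66 in MLC and 4.01, 4.52 and 6.20 in dHD28. The groups did not overlap, at -1.41 ± 0.46 with an interval of -2.41 to -0.41 before adjustment, although the MLC level lies near the lower quartile of an array. The difference was -0.77 without dHD28 replicate 3 and -0.82 as the mean of its probe sets, of which the other two gave -0.64 and -0.42. Mest, an imprinted hydrolase-like gene, read 5.84, 5.14 and 6.43 in MLC and 7.08, 6.66 and 6.84 in dHD28, without overlap, at -1.06 ± 0.62. In the 23 imprinted genes Peg10 came next, at -0.87 ± 0.38, with dHD28 replicate 1 high at 5.32, and the list's median was 0.05. Asporin (Aspn), a small proteoglycan of cartilage and tendon, read 3.60, 2.91 and 6.38 in MLC and 6.89, 3.90 and 6.65 in dHD28, overlapping, at -1.51 ± 1.13. Mme, the endopeptidase neprilysin, read 2.60, 3.22 and 8.07 in MLC and 7.15, 4.54 and 5.56 in dHD28, so MLC held both the lowest and the highest value. Eva1b read 4.95, 8.14 and 8.01 in MLC and 8.06, 9.10 and 7.91 in dHD28, and its difference of -1.32 ± 0.95 was -0.28 without MLC replicate 1, the low array. The Polycomb-associated gene Epop (-1.02 ± 0.59) completes this side.

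**Figure D5:**
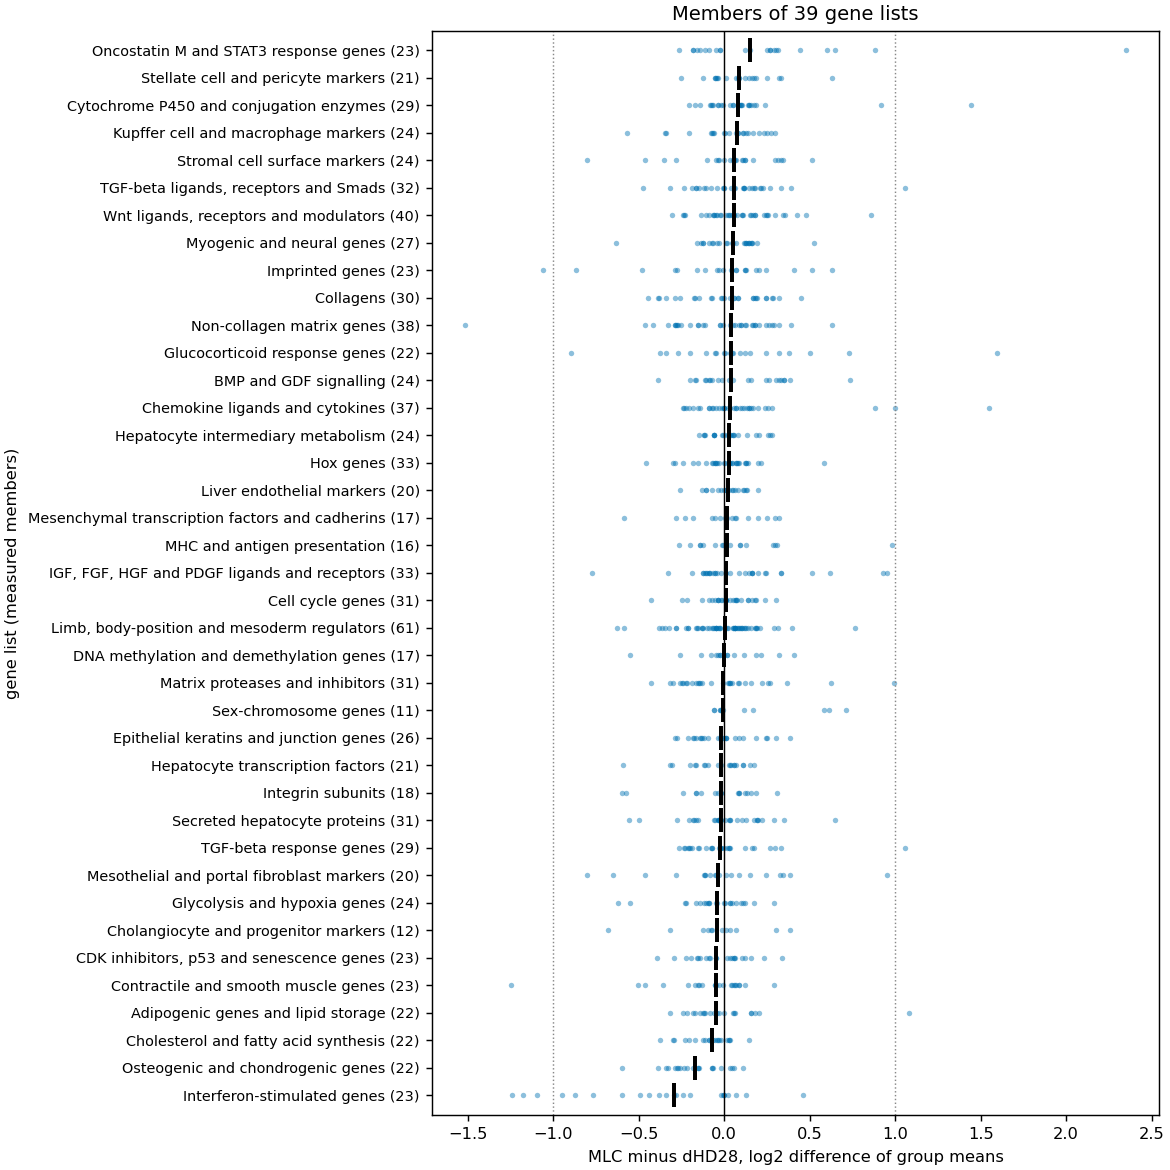
MLC minus dHD28 log2 differences of the members of 39 gene lists; each point is 1 gene, the black bar is the list's median, and dotted lines mark a 2-fold difference. Medians lie between -0.30 (interferon-stimulated genes) and 0.15 (oncostatin M and STAT3 response genes), and few points pass the dotted lines.

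Of the 39 lists, none had a member that changed, and with the replicate block in the 6 arrays 0 to 8 members of a list were at an unadjusted p under 0.05. In 26 lists the median had opposite signs in the low and high classes of control signal. The median of all genes turned as well, from 0.057 to -0.074, so this count is no trait of the lists. Matrix genes made by stromal cells had median differences of 0.05 for 30 collagens, 0.04 for 38 other matrix genes and -0.005 for 31 proteases and inhibitors. In both populations 16 collagens, 18 other matrix genes and 16 proteases or inhibitors lay at least 4-fold above the hepatocytes (all genes: 1387 of 18193). The largest collagen differences were in Col6a2 and Col4a2, at 0.45 and -0.44. The 22 osteogenic and chondrogenic genes had a median of -0.17, with 18 below and 4 above zero (all genes: 8785 below and 9362 above). That median was 0.13 between arrays of low control signal, -0.13 between arrays of high signal and -0.08 with the class as a block. Dmp1, a bone matrix phosphoprotein, was the largest at -0.60 ± 0.71, with arrays from 2.97 to 6.08, and the others lay between -0.39 and 0.11. For 33 ligands and receptors of the IGF, FGF, HGF and PDGF families the median was 0.01, and the IGF-binding proteins Igfbp3 and Igfbp2 were at 0.95 ± 0.62 and 0.93 ± 0.88.

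The medians of the lists left were all near zero. They were 0.02 for 17 mesenchymal transcription factors and cadherins, -0.02 for 18 integrin subunits, -0.02 for 26 keratin and junction genes, 0.05 for 27 myogenic and neural genes and 0.01 for 16 genes of MHC and antigen presentation. Among the last, the immunoproteasome subunit Psmb8 read 9.10, 7.62 and 8.23 in MLC and 7.09, 6.40 and 8.52 in dHD28. In metabolism the medians were -0.04 for 24 glycolysis and hypoxia genes and -0.07 for 22 genes of cholesterol and fatty acid synthesis, where the lactate exporter Slc16a3 (-0.62) and the desaturase Fads2 (-0.37) were the largest.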

How the data were processed

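RNA from 15 mouse samples was hybridised to Affymetrix arrays after labelling of 5 µg of total RNA as biotinylated cRNA, per the labels. The deposited table holds log2 expression values that the authors made by RMA (background correction, quantile normalisation and summary of probes), per the submitters' processing notes, with no version given. No log base is stated anywhere and base 2 was assumed, which the span of values allows. Arrays carry no depth, and their number limits precision.

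Of 45101 probe sets, 64 were controls, 34945 had 1 gene symbol, 932 several and 9160 none. The gene IDs of 34741 matched RefSeq (GRCm38.p6), which changed 0 symbols. Of the 18193 genes, 9010 had several probe sets, and the one with the highest mean over 15 arrays was used.

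Group means of 5 groups were modelled over all 15 arrays by lmFit and eBayes (limma 3.58.1, R 4.3.3, 10 residual degrees of freedom). A gene was called changed at 2-fold or more with an adjusted p under 0.05. Errors of differences are SE of this model, those of means SD. Python 3.11.15 and pandas 2.3.3 made the summaries. The model was checked on simulated data with independent noise for each gene and array. Of 100 genes changed by 1.5 log2 units 76 were called, and 95 of 100 changed by 3, with 8 false calls. The simulation lacked variation shared between arrays, so it cannot show how the test behaves under it.

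The labels give shared replicate numbers without saying what they mark. After removal of group means, each MLC array correlated with the dHD28 array of its number (0.213, 0.784 and 0.598), so the numbers were used as a block in alternative fits. The main model, its SE and its intervals do not use this pairing. Pair 1 is of unlike control signal class, and MLC replicate 3 with dHD28 replicate 1 gave 0.116. Pairs 2 and 3 each share a class, so replicate and class cannot be told apart in them.

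The rule for named genes takes the 15 highest and 15 lowest differences among changed genes, of which there were none, and the 2 largest members of each list, or any member of the Hox, TGF-β, DNA methylation and sex-chromosome lists. The 24 genes at least 2-fold apart, and examples outside the rule such as Alb, were picked with their values in view. The comparison and the 39 lists (984 genes, 909 measured) were chosen with earlier results of these data known. Alternatives covered probe sets, dim genes, normalisation, centring, spread, threshold, the replicate and class blocks, and each array left out in turn. Testing every probe set on its own was added after the data were seen.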

Additional observations from a re-analysis of the deposited data

How the results depend on the processing

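Under every alternative run, 0 genes changed between MLC and dHD28. The other counts moved. The 64 genes at an unadjusted p under 0.05 became 18 when only genes above the median in at least 3 arrays were kept, 361 with array weights and 1 with treat against a fold of 1.5. They became 504 with the replicate block in the 6 arrays (87 with it in all 15), 348 with the control signal class as a block, 249 in low-class and 333 in high-class arrays alone, and 238 of 45037 probe sets tested singly. Leaving out 1 array gave 37 to 255, with 37 without MLC replicate 1, 150 without MLC replicate 3, 175 without dHD28 replicate 2 and 255 without dHD28 replicate 3. The 24 genes at least 2-fold apart became 48 with array weights, 37 with the class block, 102 in low-class arrays, 368 in high-class arrays and 44 probe sets tested singly, and 23 to 65 with 1 array left out. That range holds 55 without dHD28 replicate 2, 63 without dHD28 replicate 3, 57 without MLC replicate 2 and 65 without MLC replicate 3. Low-class and high-class fits leave an arm with 1 array, assumed to vary like the others. The replicate block changed no call.

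Of 759 values of single genes under the alternatives, 9 had the opposite sign and the others kept theirs. Many alternatives, such as leaving out an MSC, HD28 or hepatocyte array, cannot move a difference between MLC and dHD28. The share of 9 in 759 is therefore no measure of stability. In low-class arrays Eva1b was 0.03 and Mme 1.72. In high-class arrays Usp18 was 0.18, Steap4 -0.23 and Saa3 -0.27. Fabp4 was -0.03 without probe sets of the suffixes _x_at, _s_at and _a_at. With 1 array left out Usp18 ran from -2.42 to 0.02, Cxcl5 from -0.07 to 2.92 and Steap4 from -0.22 to 3.10. List medians moved beyond the replicate spread in 61 of 1248 cases, which include the same alternatives that cannot move them. Centring on 8 housekeeping genes put the median of all genes at -0.03. Signal limits the dim genes, since no detection calls were given.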
